A study of Mus musculus with 12 samples.

Results

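The comparison described here asks what anti-PD-1 adds in mice that already receive ANT008, a peptide antagonist of the receptors for vasoactive intestinal peptide (VIP). It sets the 3 mice of the group ANT008+aPD-1 against the 3 mice of the group ANT008+IgG, 6 of the 12 mice of the series, over the 748 endogenous genes of a metabolism panel. The other 6 mice, 3 each of the groups Scram+IgG and Scram+aPD-1, received a peptide with a scrambled VIP sequence in place of ANT008, and serve here for the spread between mice and for the effect of anti-PD-1 without the antagonist. All were female C57BL/6 mice of 8 to 10 weeks with KPC.Luc tumors under the skin, made from a luciferase-marked line of mouse pancreatic ductal adenocarcinoma (PDAC) of the KPC model. ANT008 was given in both groups at 10 µg daily under the skin, starting 6 to 7 days after implantation, and treatment lasted 10 days. The groups differ in the antibody, 200 µg of isotype IgG or of anti-PD-1 every 3 days into the peritoneum. T cells were drawn from the tumors with beads against CD90.2, a surface protein of T cells, to a stated purity of 80 to 85%, so part of the RNA can come from other cells. The RNA of each mouse was counted in 1 lane of the nCounter instrument, which counts fluorescent barcodes on single RNA molecules without amplification.

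PD-1 is an inhibitory receptor of activated T cells. When its ligands PD-L1 or PD-L2 bind, the phosphatase recruited to its tail dampens signals from the T cell receptor (TCR) and from the co-stimulatory receptor CD28, and antibodies that block PD-1 release both. VIP is a neuropeptide that acts through the receptors VPAC1 and VPAC2, which raise cyclic AMP in T cells and dampen their activation. Activated T cells take up more nutrients and induce the transcription factor Myc, glycolysis and, in cytotoxic cells, granzymes and perforin, and the panel holds genes of all of these programs.

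The panel reads each gene through a target of 100 bases in its mRNA. For 3 genes that the results below turn on, Cd28 and Gzma with higher counts and Myc with lower counts after anti-PD-1 was added, the first 30 bases of the target are shown, 5′ to 3′, as the panel definition gives them.
Cd28, from base 526 of transcript NM_007642.4: tcctaagctgttttgggcactggtcgtggt
Gzma, from base 188 of transcript NM_010370.2: ctgtgctggcgctttgattgaaaagaactg
Myc, from base 630 of transcript NM_010849.4: ccctcaacgtgaacttcaccaacaggaact

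The lanes differed widely in depth, and this bears on every value that follows. The endogenous counts summed to 1357305, 202511 and 100293 in the ANT008+IgG mice 1 to 3, and to 5776, 268678 and 24813 in the ANT008+aPD-1 mice. Background, set at the mean plus 2 SD of the 8 negative control probes of a lane, was between 9.94 and 28.2 counts, so that 632, 534 and 562 genes lay above it with ANT008+IgG and 156, 580 and 357 with ANT008+aPD-1. Counts were divided by the lane size, taken from the 3 housekeeping genes that exceeded background in each of the 12 lanes, and are given below as scaled counts, in the order of mice 1 to 3, first without anti-PD-1 (ANT008+IgG) and then with it (ANT008+aPD-1). A gene just at background has a scaled count of 4.47, 30.4 and 23.4 in the ANT008+IgG mice and of 358, 13.8 and 149 in the ANT008+aPD-1 mice. A scaled count under 358 in ANT008+aPD-1 mouse 1, or under 149 in mouse 3, therefore cannot be told from background. In mouse 1, the mean of the negative probes alone would account for 63.1% of all endogenous counts. Scaling by the spiked positive controls in place of housekeeping genes moved the median log2 fold change of all tested genes from -0.04 to -3.97. Higher and lower below are therefore relative to the 3 housekeeping genes. Under that scaling the median of all tested genes was -0.42 after background subtraction and -0.39 with mouse 2 alone for ANT008+aPD-1. ANT008+aPD-1 mouse 2 is deeper than the ANT008+IgG mice 2 and 3, and its values are given apart where the shallow lanes matter. ANT008+IgG mouse 1 carries a flag in the deposited file, whose meaning is not given there.

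**Figure D1:**
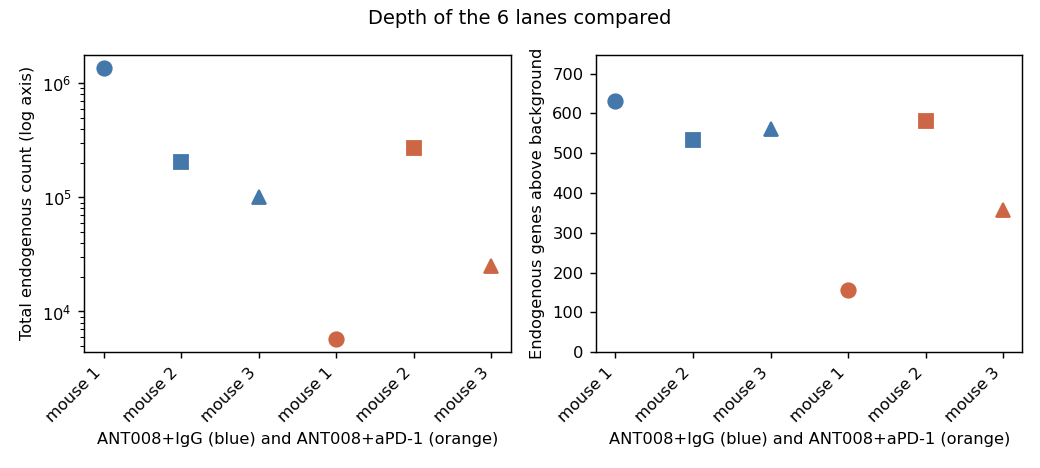
Total endogenous count (left, log axis) and number of endogenous genes above background (right, of 748) in each of the 6 mice, blue for ANT008+IgG and orange for ANT008+aPD-1. The ANT008+aPD-1 mice 1 and 3, with totals of 5776 and 24813, lie below all 3 ANT008+IgG mice, and mouse 2, with 268678, lies among them.

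With 3 mice a side, no gene of the 640 tested passed the study's threshold of an adjusted p below 0.1 in either direction, 0% in both, by edgeR's quasi-likelihood test. The smallest adjusted p was 0.578. At an unadjusted p below 0.05, 35 genes were higher (5.47%) and 15 lower (2.34%) with ANT008+aPD-1. DESeq2, which scaled the lanes in its own way and not by the housekeeping genes, called 5 genes higher, among them Il10, Nos2, Cox7b and Cd14. It had 59 genes at an unadjusted p below 0.05, and limma's voom with sample weights called 5 (Il10, Adh1, Cd14, Gzma and Cd28), with 128. Of these calls, 4 of DESeq2 and 2 of voom were not above background in all 3 treated mice. Il10 and Cd14 were called by both. Without ANT008+aPD-1 mouse 2, the deep lane, edgeR called 26 genes higher, and for 25 of these at least 1 of the 3 treated mice was at or below background. Of the 35 higher genes, 28 were at or below background in at least 1 ANT008+aPD-1 lane, 8 of them in all 3. When the deep lane, mouse 2, alone stood for ANT008+aPD-1, 22 of the 35 higher genes and all 15 lower genes kept their sign, against 444 of the 640 tested genes. The median log2 fold change of all tested genes was then -0.39, so a lower gene keeps its sign more readily than a higher one. The 2 directions cannot be compared by these counts. Mouse 2 is also part of the fit that chose these genes.

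Among the higher genes with the smallest p were Il10, Nos2, Adh1, Cd14, Eomes, Cox7b and Gzma. Il10, the gene of an anti-inflammatory cytokine, had scaled counts of 12.1, 8.6 and 16 without anti-PD-1 and 252, 32.4 and 120.3 with it. The 3 treated mice lay above all of the others, but only mouse 2 was above its own background. Nos2, the inducible nitric oxide synthase of activated macrophages, gave 39.3, 25.8 and 39.9 without anti-PD-1 and 396, 155 and 132 with it, and mice 1 and 2 with anti-PD-1 were above background. Eomes, a transcription factor of cytotoxic and memory T cells, gave 44.8, 43 and 33.9 without anti-PD-1 and 252, 64.7 and 205 with it, higher in all 3 mice and least so in the deep one. For Adh1, an alcohol dehydrogenase, and Cox7b, a subunit of cytochrome c oxidase, the raw counts in ANT008+aPD-1 mice 1 and 3 were between 1 and 8. Their log2 fold changes of 2.73 ± 0.81 and 3.29 ± 1.09 (SE) became 1.59 and 0.81 in mouse 2 alone.

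Of the T cell genes with counts above background in all 6 lanes, Gzma and Cd28 had the smallest p. Cd28, the co-stimulatory receptor whose signal PD-1 dampens, had scaled counts of 237, 521 and 267 without anti-PD-1 and 973, 658 and 1419.9 with it. Its raw count in the shallowest lane was 27, with an exact 95% Poisson interval of 17.8 to 39.3 that covers counting error only. The mice of the groups did not overlap, the means were 342 ± 156 without and 1017 ± 383 with anti-PD-1 (SD, n = 3 each), and the log2 fold change was 1.57 ± 0.61 (SE, adjusted p = 0.578). In mouse 2 alone it was 0.95. Gzma, the serine protease granzyme A of cytotoxic granules, gave 316, 685 and 238 without anti-PD-1 and 1189, 1293 and 2346 with it. All 3 treated mice again lay above the others, with means of 413 ± 239 without and 1609 ± 640.3 with anti-PD-1 (SD, n = 3 each), a log2 fold change of 1.97 ± 0.67 (SE, adjusted p = 0.578) and one of 1.65 in mouse 2 alone. Both genes passed the threshold only in voom, with log2 fold changes of 2.19 for Cd28 and 2.75 for Gzma. The sample weights there were 0.26 for ANT008+aPD-1 mouse 2, the deep lane, and 0.70 and 1.52 for mice 1 and 3. ANT008+IgG mouse 2, the highest of its group in both genes, had a weight of 0.29. Of the 142 genes above background in all 6 lanes, 34 had a mean below 358 with ANT008+IgG, Cd28 among them, and could be above background in ANT008+aPD-1 mouse 1 only by being higher there than that mean.

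Members of the co-stimulation and checkpoint list had higher fitted levels throughout. Its 11 tested genes had log2 fold changes from 0.25 to 1.57 with a median of 0.95, against -0.04 over all tested genes, and 1 of 11, Cd28, was at an unadjusted p below 0.05. In the deep lane, 8 of 11 lay above all 3 ANT008+IgG mice, and 11.7% of all tested genes did so. Ctla4, the inhibitory receptor that competes with CD28 for its ligands, gave 304, 119 and 303 without anti-PD-1 and 360.4, 788 and 614 with it. The groups did not overlap, and the log2 fold change was 1.32 ± 0.71 (SE, adjusted p = 0.578). In ANT008+aPD-1 mouse 1 Ctla4 lay just above the background of 358, and that background alone exceeds all 3 ANT008+IgG values. The lack of overlap in that mouse therefore says little. Icos, an inducible co-stimulator of activated T cells, gave 183, 63.7 and 116 without anti-PD-1 and 324, 367 and 229 with it, also without overlap, with mouse 1 below its background. Pdcd1, which encodes PD-1 itself, gave 459, 511 and 216 without anti-PD-1 and 469, 408 and 902 with it and overlapped widely. Pdcd1lg2, the gene of its ligand PD-L2, gave 117, 194 and 67.9 without anti-PD-1 and 360.4, 153 and 385 with it, and the 2 groups overlapped through mouse 2. Cd27 and Tigit, a co-stimulatory and an inhibitory receptor, had log2 fold changes of 0.92 ± 0.78 and 0.95 ± 0.86 (SE) and overlapped with ANT008+IgG mouse 1.

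Fitted levels of effector genes were higher as well. All 11 tested members of the effector cytokine and cytotoxicity list had log2 fold changes above 0, from 0.92 to 2.88 with a median of 1.41, and 5 of 11 (Eomes, Gzma, Fasl, Il2 and Il4) were higher at an unadjusted p below 0.05, where 5.47% of all tested genes were. Of these 5 only Gzma was above background in all 3 treated mice, and Il4, a cytokine of helper T cells, had a log2 fold change of -0.07 in mouse 2 alone. The deep lane lay above all 3 ANT008+IgG mice for 8 of 11, beside 11.7% of all tested genes. With mouse 2 alone for ANT008+aPD-1 the median of the list was 0.79. Gzmb, granzyme B, gave 282, 87.8 and 269 without anti-PD-1 and 396, 869 and 385 with it, with the highest value in the deep lane. Its log2 fold change was 1.41 ± 0.92 (SE, adjusted p = 0.615). Prf1, the pore-forming perforin, gave 275, 609 and 222 without anti-PD-1 and 721, 638 and 746 with it, so that its groups were apart by less than the spread within ANT008+IgG. Nkg7, a granule protein of cytotoxic cells, gave 1359.5, 1298 and 750.5 without anti-PD-1 and 1874, 1999 and 3044 with it, with a log2 fold change of 1.02 ± 0.64 (SE, adjusted p = 0.612). Tnf, tumor necrosis factor, gave 154, 96.4 and 159.7 without anti-PD-1 and 360.4, 205 and 289 with it, and Ifng, interferon gamma, gave 114, 20.7 and 97.8 without anti-PD-1 and 252, 197 and 84.2 with it, where only mouse 2 with anti-PD-1 was above background. Il2, the T cell growth factor, gave 9.38, 18.9 and 18 without anti-PD-1 and 216, 18.1 and 96.3 with it: its high values came from 6 and 8 raw counts in the shallow lanes, and the deep lane lay within the ANT008+IgG mice.

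The genes that define T cells also had higher fitted levels. Of the 13 tested members of the T cell identity list, 12 had log2 fold changes above 0, with a median of 0.88, beside 312 of all 640 tested genes. Cd247 and Lat, 2 of 13, were higher at an unadjusted p below 0.05, beside 35 of all 640, and both had ANT008+IgG means below the background of ANT008+aPD-1 mouse 1. Cd3d, a chain of the CD3 complex, gave 469, 487 and 305 without anti-PD-1 and 649, 603 and 1191 with it, without overlap. Cd247, the CD3 zeta chain, gave 181, 99.8 and 97.8 without anti-PD-1 and 505, 223 and 337 with it, also without overlap (log2 fold change 1.40 ± 0.64, SE). Cd3e gave 398, 74 and 119.8 without anti-PD-1 and 288, 388 and 289 with it, and its chain partner Cd3g gave 739, 91.2 and 275 without anti-PD-1 and 865, 690.4 and 626 with it. Lck, the kinase that starts TCR signaling, gave 424, 146 and 214 without anti-PD-1 and 360.4, 432 and 469 with it. In each of these 3 genes ANT008+IgG mouse 1 reached the level of the treated mice. Of 11 tested genes of TCR signaling, 10 had log2 fold changes above 0, with a median of 0.91, and 3 (Cd247, Lat and Trat1) were at an unadjusted p below 0.05, against the same shares of all genes. Of the coreceptors, Cd4 gave 219, 172 and 112 without anti-PD-1 and 288, 225 and 337 with it, with all treated mice higher and mouse 1 of these below its background. Cd8a gave 364, 44.7 and 138 without anti-PD-1 and 36, 227 and 180.5 with it, a log2 fold change of -0.13 ± 0.98 (SE), with a single raw count in mouse 1. Ptprc, the pan-leukocyte antigen CD45, gave 1788, 1766 and 976 without anti-PD-1 and 1694, 1979.8 and 3056 with it and overlapped. Zap70, the kinase that binds CD3 zeta, had a log2 fold change of 0.91 ± 0.66 (SE).

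**Figure D2:**
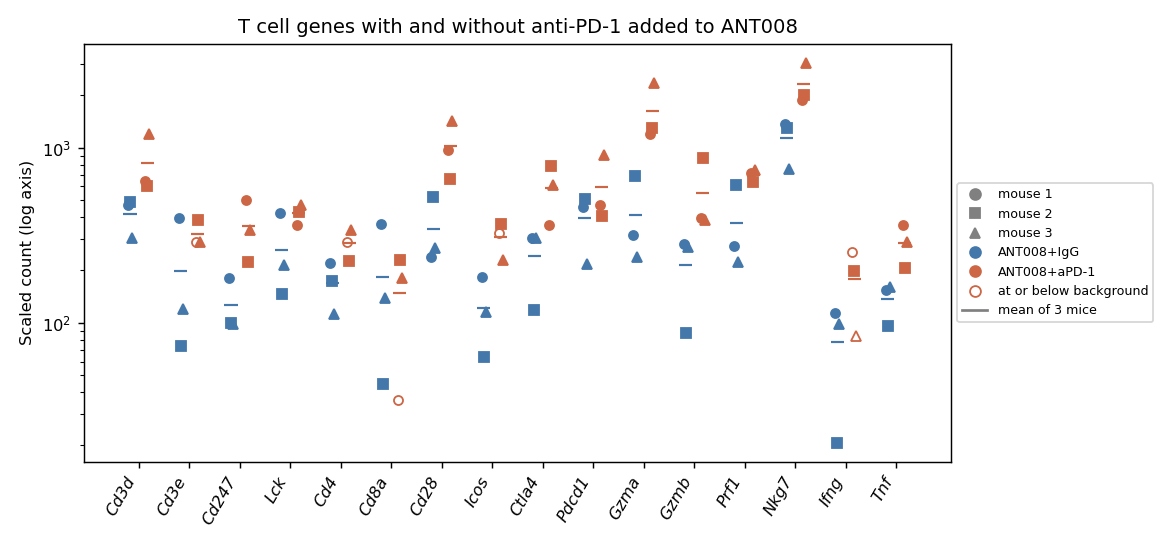
Scaled counts (log axis) of 16 T cell genes in the 3 ANT008+IgG mice (blue) and the 3 ANT008+aPD-1 mice (orange), 1 symbol a mouse and a line at the mean, with open symbols for ANT008+aPD-1 values at or below background. Cd28 at 973, 658 and 1419.9 and Gzma at 1189, 1293 and 2346 lie above all blue points, while Cd8a, Lck, Cd3e, Pdcd1 and Ifng overlap.

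For marker shares, the mean of the negative probes of a lane was subtracted from every endogenous gene, with values below 0 set to 0. Of the total of these background-subtracted endogenous counts, the 13 identity genes made up 3.61%, 2.83% and 3.28% in the ANT008+aPD-1 mice. In the ANT008+IgG mice these T cell markers made up 2.58%, 1.12% and 1.39%. More T cells and more of this RNA in each cell cannot be told apart in bulk RNA, and the part of this share in the differences of the co-stimulatory and effector genes was not tested. Myeloid markers, 7 on the panel, moved the same way: they made up 1.31%, 1.25% and 1.32% against 1.21%, 0.56% and 0.43%. The ratio of T cell to myeloid counts within a lane, which needs no scaling, was 2.77, 2.26 and 2.49 in the treated mice and 2.12, 2.00 and 3.26 in the ANT008+IgG mice. The difference of its log2 was 0.057 (exact two-sided permutation test, p = 0.9), where the smallest p that 3 mice against 3 allow is 0.1, and the sign turned to -0.24 with the markers above background in all 6 lanes. That choice kept 2 of 7 myeloid markers, Cd14 among them, and 8 of 13 T cell markers, Cd247 among them. Both Cd14 and Cd247 passed it only where high with anti-PD-1, so the value of -0.24 says little of the ratio. The sign also turned, to -0.03, -0.08 and -0.02, without ANT008+IgG mouse 1, without ANT008+IgG mouse 2 and without ANT008+aPD-1 mouse 1. Cd14, the lipopolysaccharide coreceptor of monocytes and macrophages, was among the higher genes, with scaled counts of 223, 370.0 and 169.7 without anti-PD-1 and 1009, 551 and 890.4 with it, without overlap (log2 fold change 1.66 ± 0.52, SE, adjusted p = 0.578). Its ANT008+IgG mean was also below 358, so it could exceed background in ANT008+aPD-1 mouse 1 only by being higher there. Cd68, a lysosomal protein of macrophages, gave 679, 614 and 179.6 without anti-PD-1 and 505, 562 and 806 with it and overlapped. The 4 natural killer cell markers summed to between 0.39% and 1.07% of the background-subtracted endogenous counts with ANT008+aPD-1 and to between 0.09% and 0.82% with ANT008+IgG, and their median log2 fold change was 0.52. The shares of ANT008+aPD-1 mouse 1, 1.07% here, rest on few counts. Its raw counts summed to 170 for T cell, 69 for myeloid and 51 for natural killer cell markers. Above background there were 8 of 13, 2 of 7 and 3 of 4 of them. None of the 4 B cell markers was above background in the 6 lanes, and the panel holds no epithelial marker of the list used here, so carried-over tumor cells could not be measured.

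Of 5 tested genes of the regulatory T cell list 1, Il10, was higher at an unadjusted p below 0.05, and of 4 amino acid depleting enzymes 1, Nos2, beside 5.47% of all tested genes. Median log2 fold changes were 1.15 for the regulatory list and 1.80 for the enzymes. With mouse 2 alone for ANT008+aPD-1 they were 0.42 and 0.49. Of the treated mice, only mouse 2 was above background for Il10. Foxp3, the transcription factor that defines regulatory T cells, gave 46.2, 36.1 and 39.9 without anti-PD-1 and 72.1, 32.4 and 12 with it, and with anti-PD-1 only mouse 2 was above background. Il2ra, the IL-2 receptor alpha chain CD25 of regulatory and activated T cells, gave 127, 87.8 and 118 without anti-PD-1 and 288, 149 and 337 with it, without overlap (log2 fold change 1.15 ± 0.54, SE). Its value in ANT008+aPD-1 mouse 1 was below background. Arginase 1, Arg1, an enzyme of tumor macrophages that removes arginine, gave 1371, 1750.2 and 277 without anti-PD-1 and 1874, 3039 and 4958 with it. All 3 treated mice were above the others, and the log2 fold change was 1.54 ± 0.78 (SE, adjusted p = 0.578), with 1.42 in mouse 2 alone. Among the 5 tested chemokine and receptor genes none was at an unadjusted p below 0.05. Ccl5, a chemokine of effector T cells, gave 1953, 372 and 711 without anti-PD-1 and 1189, 3032 and 2407 with it, and Cxcr6, a receptor of tissue-resident T cells, gave 789.8, 258 and 242 without anti-PD-1 and 541, 746 and 902 with it, both overlapping through ANT008+IgG mouse 1.

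By p the lower genes were led by Adk, Myc, Pebp1, Rictor, Slc27a1, Ccnd1, Cbr4 and Col6a3, each lower in all 3 treated mice than in any ANT008+IgG mouse. Adk, adenosine kinase, which clears adenosine by phosphorylation, gave 158, 265 and 204 without anti-PD-1 and 72.1, 81.3 and 84.2 with it, a log2 fold change of -1.37 ± 0.40 (SE, adjusted p = 0.578). Its counts in the shallow lanes were 2 and 7, below background, while the deep lane gave -1.36 alone. Myc, the transcription factor that drives growth of activated T cells, gave 821, 2206 and 1028 without anti-PD-1 and 288, 581 and 578 with it, with mouse 1 of the treated mice at 8 raw counts and below its background. Its means were 1352 ± 747 without and 482 ± 168 with anti-PD-1 (SD, n = 3 each), and the log2 fold change was -1.45 ± 0.49 (SE, adjusted p = 0.578) and -1.22 in mouse 2 alone. Ccnd1, cyclin D1 of the entry into the cell cycle, gave 456, 1256 and 731 without anti-PD-1 and 252, 431 and 265 with it. Rictor, the defining subunit of mTOR complex 2, gave 263, 262 and 279 without anti-PD-1 and 144, 189 and 156 with it: the ANT008+IgG mice lay close together and the treated mice lower, by -0.67 ± 0.28 (log2, SE). Pebp1, an inhibitor of Raf kinase, Slc27a1, a fatty acid transporter, and Cbr4, a carbonyl reductase of mitochondrial fatty acid synthesis, had log2 fold changes of -1.28 ± 0.45, -1.14 ± 0.48 and -1.06 ± 0.45 (SE), and each was below background in ANT008+aPD-1 mouse 1, as were Ccnd1, Rictor and Col6a3. A low level in a shallow lane is bounded by the background, so the true fold of these genes can be larger than the fitted one.

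Stromal genes were among the lower ones. Collagen VI chains are made mainly by fibroblasts. Col6a3 gave 363, 644 and 605 without anti-PD-1 and 288, 290.4 and 72.2 with it. Col6a2, named after its values were seen, was the 1 gene of the 15 with counts above background in all 6 lanes and gave 716, 2086 and 1014 without anti-PD-1 and 469, 514 and 433 with it, a log2 fold change of -1.42 ± 0.62 (SE, adjusted p = 0.578) and of -1.30 in mouse 2 alone. The 3 fibroblast and endothelial markers on the panel summed to 0.14%, 0.22% and 0.05% of the background-subtracted endogenous counts with ANT008+aPD-1 and to 0.32%, 0.41% and 0.46% with ANT008+IgG. In the treated mice 1 and 3 only 0 and 1 of the 3 were above background, and 1 of the 3 had a log2 fold change above 0, at 0.41. The part of stromal RNA in the other lower genes was not tested.

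**Figure D3:**
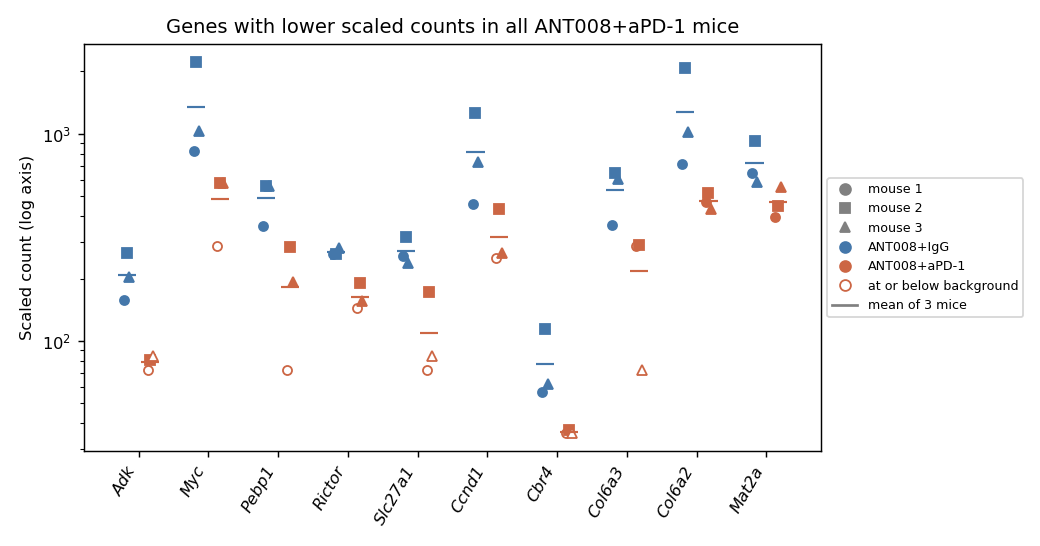
Scaled counts (log axis) of 10 genes that were lower in all 3 ANT008+aPD-1 mice (orange) than in any ANT008+IgG mouse (blue), 1 symbol a mouse and a line at the mean, with open symbols for ANT008+aPD-1 values at or below background. Col6a2 and Mat2a are measured above background in all 6 mice, and Adk is above background with ANT008+aPD-1 in mouse 2 alone.

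Of 20 tested genes of PI3K, AKT, mTOR and AMPK signaling, which couple growth to nutrients, 17 had log2 fold changes below 0, with a median of -0.39, beside 328 of all 640. Rictor and Pdpk1, 2 of 20, were lower at an unadjusted p below 0.05, beside 2.34% of all tested genes. The deep lane lay below all 3 ANT008+IgG mice for 10 of 20, where 36.6% of all tested genes did so, and the median log2 fold change of all genes with mouse 2 alone was -0.39. Of 19 nucleotide synthesis genes the median was -0.30 and 1 was lower at an unadjusted p below 0.05, Tk1, a thymidine kinase of dividing cells. The 9 tested cell cycle and DNA replication genes had a median of -0.62, with Ccnd1 alone at an unadjusted p below 0.05. In amino acid metabolism, Mat2a, which makes S-adenosylmethionine, gave 646, 924 and 585 without anti-PD-1 and 396, 447 and 554 with it, apart between groups, with an adjusted p of 0.578.

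In energy metabolism the mice of the groups overlapped for most of the genes described. Of 19 tested glycolysis genes 8 had log2 fold changes above 0, with a median of -0.34, and 1 (Gpi1) was higher at an unadjusted p below 0.05. Over all tested genes 5.47% were higher and 2.34% lower at that level. The log2 fold change of Gpi1 was 1.68, but 0.73 after background subtraction and 0.26 with mouse 2 alone for ANT008+aPD-1. Ldha, lactate dehydrogenase A, gave 2893, 4822 and 3068 without anti-PD-1 and 1838, 2825 and 3381 with it, and Aldoa, aldolase, gave 4731, 16182 and 5936 without anti-PD-1 and 4829.6, 6517 and 9482 with it, both with overlap. Hk2, the inducible hexokinase, gave 342, 1041 and 301 without anti-PD-1 and 396, 453 and 1263 with it, so that 1 mouse of each group was high. The 20 respiratory chain genes had a median of -0.28 with 1, Cox7b, higher at an unadjusted p below 0.05, and the 11 genes of the tricarboxylic acid cycle had one of -0.09 with none. Cox7c, a subunit of cytochrome c oxidase, gave 1023, 4240.3 and 994 without anti-PD-1 and 757, 1073 and 1745 with it, with ANT008+IgG mouse 2 far above its group and mouse 3 the highest of the treated mice. Fatty acid metabolism had a median of -0.53 over 16 genes, with Slc27a1 alone at an unadjusted p below 0.05. Within it Fabp5, a fatty acid carrier, gave 619, 949.9 and 375 without anti-PD-1 and 721, 1069 and 2431 with it, and Fasn, fatty acid synthase, gave 346, 1031 and 477 without anti-PD-1 and 433, 251 and 433 with it, with the lowest value in the deep lane. Their log2 fold changes were 1.13 ± 0.53 and -0.77 ± 0.58 (SE), and both groups overlapped. Of the 12 MHC and proteasome genes of antigen presentation 2 were above 0, with a median of -0.26 and none at an unadjusted p below 0.05. H2-Aa, an MHC class II chain, gave 11073, 5374 and 6028 without anti-PD-1 and 3172, 7413 and 4597 with it. Of the other lists, 10 nutrient transporter genes had a median of 0.55, 15 MAPK and JAK-STAT genes one of 0.02, 15 antioxidant genes one of -0.07 and 24 genes of amino acid and one-carbon metabolism one of -0.15, and in these 4 lists no gene was at an unadjusted p below 0.05. Of 12 Toll-like receptor and NF-kB genes Cd14 was higher and Ly96 lower at that level, and of 11 autophagy and lysosome genes Gabarap was higher, with 14 raw counts in the deep lane, below background.

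**Figure D4:**
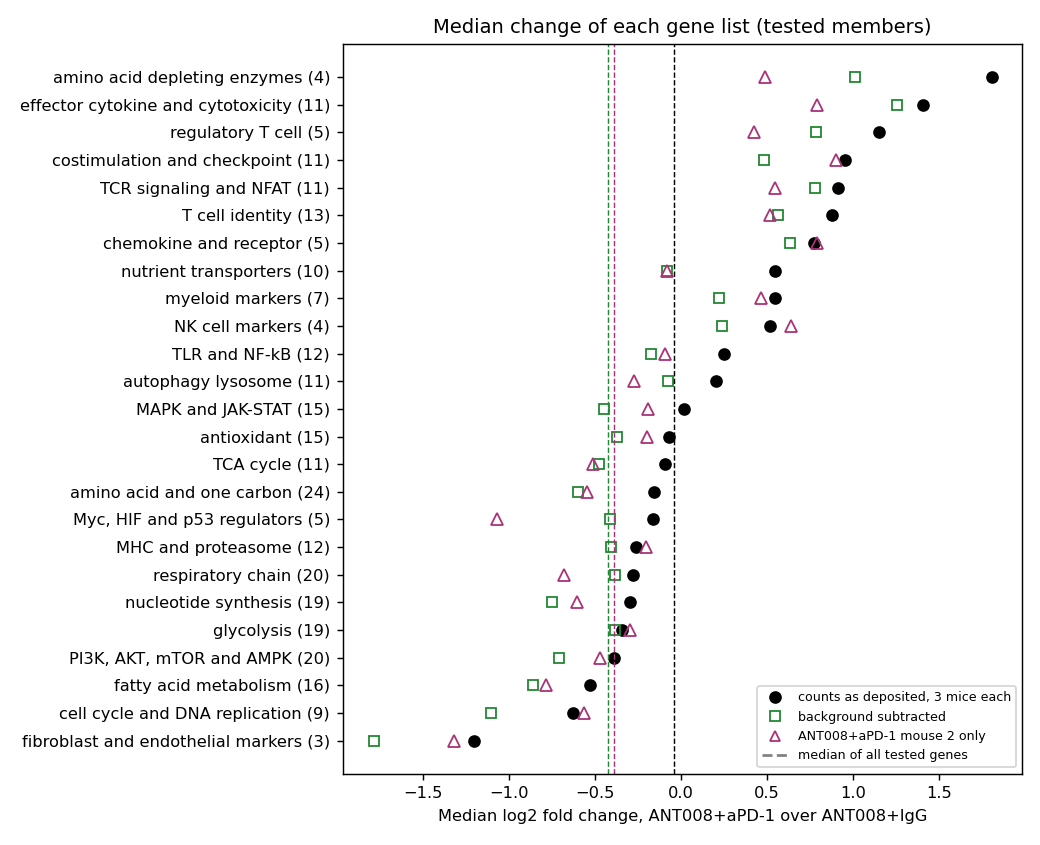
Median log2 fold change of the tested members of each gene list (number in parentheses), ANT008+aPD-1 over ANT008+IgG, for the counts as deposited (black), after background subtraction (green squares) and with mouse 2 alone for ANT008+aPD-1 (purple triangles), with dashed lines at the median of all 640 tested genes, at -0.04, -0.42 and -0.39. The effector list has medians of 1.41, 1.25 and 0.79 and the costimulation list of 0.95, 0.48 and 0.90, and the fibroblast and endothelial markers lie lowest.

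Over all tested genes, 40 (6.25%) had all 3 treated mice above all 3 ANT008+IgG mice and 47 (7.34%) below. Against these shares, 7 of 11 effector genes, 4 of 11 co-stimulation and checkpoint genes and 3 of 13 identity genes were higher without overlap, and none of the 3 lists had a lower one. The excess was not particular to these lists. Higher without overlap were also 4 of 5 regulatory T cell genes, 4 of 11 TCR signaling genes, 2 of 4 amino acid depleting enzymes and 2 of 2 tested neutrophil markers, with 0 lower in each. Of all 40 higher genes 11, and of the 47 lower genes 9, were above background in all 6 lanes. Among the higher ones these were 5 effector, 2 co-stimulation, 2 identity, 1 regulatory and 2 TCR signaling genes, 1 depleting enzyme and 0 neutrophil markers, where a gene can be in more than 1 list. To pass that filter a gene needed a scaled count above 358 in ANT008+aPD-1 mouse 1. Cd28, Ctla4, Gzmb, Tnf and Cd247 had lower means with ANT008+IgG and passed it only by being higher there. Their passing is therefore no separate support. A gene not detected in the shallow lanes can lie above the ANT008+IgG mice there through the scaled background alone. Conversely 5 of 20 genes of PI3K, AKT, mTOR and AMPK signaling were lower without overlap, 1 of them above background in all 6 lanes, and none was higher. The lists share no genes between the effector and the co-stimulation groups, but their genes are measured in the same 6 mice and are no independent replicates.

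Whether anti-PD-1 acts differently with the antagonist than without it was tested by the interaction, the difference of ANT008+aPD-1 from ANT008+IgG minus that of Scram+aPD-1 from Scram+IgG. These 2 differences share no mice. No gene passed an adjusted p below 0.1 (0%) by edgeR, where 7 genes were above and 2 below 0 at an unadjusted p below 0.05. DESeq2 and voom also called none, with 15 and 81 genes at an unadjusted p below 0.05. For anti-PD-1 with scrambled peptide edgeR and DESeq2 called no gene, each with 7 at an unadjusted p below 0.05, while voom with sample weights called 93 higher and 50 lower, Cd28, Adk, Cd3e, Cd8a and Ccl5 among them. Many other genes described above were in these voom calls, such as Ctla4, Icos, Tigit, Cd27, Pdcd1, Cd247, Lck, Gzmb, Ifng, Tnf, Eomes, Il10, Nos2 and Cd14. Gzma, Prf1, Il2 and Myc were not. In that fit Scram+IgG mouse 1 had a weight of 0.34 and mouse 3 one of 4.69. The log2 fold changes below are those of edgeR, and the direction of each voom call is not given here. With scrambled peptide, Cd28 had a log2 fold change of 1.17 and Gzma one of 0.73, beside 1.57 and 1.97 with ANT008. The interaction was 0.40 ± 0.84 for Cd28 and 1.24 ± 0.92 for Gzma (SE). Cd3e, Cd8a and Ccl5 had log2 fold changes of -0.47, -0.61 and -0.58 with scrambled peptide and 0.71, -0.13 and 1.14 with ANT008, and interactions of 1.18 ± 1.28, 0.49 ± 1.35 and 1.71 ± 1.29 (SE). For Myc and Adk the values were -0.30 and -0.34 without and -1.45 and -1.37 with the antagonist, with interactions of -1.15 ± 0.68 and -1.02 ± 0.53 (SE). The medians of the effector list were 0.45 without ANT008 and 1.41 with it, and those of the co-stimulation list 0.45 and 0.95. The values with scrambled peptide rest on Scram+IgG mouse 1, whose T cell markers made up 3.66% of the background-subtracted endogenous counts against 0.80% and 0.85% in mice 2 and 3. Without it 81 genes were at an unadjusted p below 0.05 for anti-PD-1 alone, the medians without ANT008 were 1.16 and 1.57, and the median interactions turned from 1.05 to -0.21 for the effector list and from 0.74 to -0.74 for the co-stimulation list. The adjusted p of the interaction was 0.993 for each gene whose interaction is given in this paragraph, and a difference between both settings was not detectable with these mice and this depth. Of the 35 higher genes 29, and of the 15 lower genes 14, had the same sign with scrambled peptide, against 407 of all 640.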

How the data were processed

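RNA of T cells from subcutaneous KPC.Luc tumors of 12 mice, 3 in each of 4 groups, was hybridized to the nCounter Mouse Metabolic Pathways panel, and groups and mouse numbers were taken from the sample titles. The authors deposited the raw counts of each probe in each lane, with no background subtraction or normalization, and the panel definition, from which target sequences were read. A normalization and a test for single genes are not given in the sources used here. RefSeq (GRCm38.p6) held 767 of 768 gene symbols and was used for names only.

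Background was the mean plus 2 SD of the 8 negative probes of a lane. As lane size served the geometric mean of those housekeeping genes, 3 of 20, that exceeded background in every one of the 12 lanes. Genes that exceeded background in 3 or more lanes, 640 in all, entered edgeR's quasi-likelihood test (glmQLFit, glmQLFTest; edgeR 4.0.16 under R 4.3.3) in 1 fit of all 4 groups without covariates, with Benjamini-Hochberg adjustment. Calls used the study's adjusted p below 0.1. Standard errors came from the test statistic. The script was tested on simulated data. Two-sided exact permutation of 3 mice against 3 served the marker ratio.

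Genes and lists were chosen with earlier results of these data known. Named were the 8 genes with the smallest unadjusted p in each direction, 22 fixed T cell genes, and up to 4 of the highest genes of each list above background in all 6 lanes. Some of these genes are not reported here. Lat, Trat1, Fasl, Il4, Gpi1, Gabarap, Ly96, Pdpk1, Tk1 and Col6a2 were named after their values were seen. Alternatives were TMM, positive control, total count and all-housekeeping scaling, other gene filters, background subtraction (floor 1), DESeq2 1.42.0, limma 3.58.1 on log2(scaled count + 1) and with voom, a fit of the compared groups, a replicate block, each mouse left out and both shallow lanes left out. DESeq2 used its own lane scaling in place of the housekeeping genes. Combinations of subtraction with a gene filter or TMM, and the marker ratio without the shallow lanes or with mice paired by number, were chosen after seeing the data. Mice of the same number are different animals.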

Additional observations from a re-analysis of the deposited data

How the results depend on the processing

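The direction and the side of the threshold of the genes named in the text were kept under most alternatives, but part of this agreement was fixed in advance. None of these genes passed the threshold in the main fit. Leaving out a mouse given scrambled peptide leaves a log2 fold change fitted from the ANT008 groups nearly unchanged. The number of genes called higher was 0 by edgeR under every scaling, filter and subtraction tried, 5 with DESeq2, 5 with voom and sample weights, and between 0 and 26 with 1 mouse left out, where 26 came without ANT008+aPD-1 mouse 2. No alternative called a lower gene. For the interaction, leaving out 1 mouse gave between 0 and 1 higher genes. At an unadjusted p below 0.05, background subtraction gave 12 higher and 48 lower genes, positive control scaling 0 and 36, and mouse 2 alone for ANT008+aPD-1 2 and 8. With ANT008+aPD-1 mouse 1 left out the counts were 12 and 11, and with mouse 3 left out 10 and 6. Positive control scaling moved the median of all genes from -0.04 to -3.97. Relative to that shift, the log2 fold change turned to 0.49 for Aldoa, -0.13 for Cd68, 0.0945 for Cox7c and 0.0373 for Ldha. It turned to 0.36 for Aldoa and 0.35 for Cox7c with voom, to 0.0235 for Cd8a with all housekeeping genes, and to 0.30 for Cd8a, -0.31 for Hk2, -0.0651 for Il4 and -0.14 for Gabarap with mouse 2 alone. With 1 mouse left out, values ran from -0.67 to 0.38 for Aldoa, -0.0434 to 0.66 for Cd68, -0.56 to 0.90 for Cd8a, -1.17 to 0.25 for Cox7c and -0.39 to 1.14 for Hk2. The log2 difference of the T cell to myeloid ratio was -0.24 with markers above background in all 6 lanes, -0.0855 without both shallow lanes and between -0.0762 and 0.28 with 1 mouse left out. The causes of these turns were not tested. Depth limits the ANT008+aPD-1 mice 1 and 3: genes below their background have only a bound there.

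With the replicate number as a block, 0 genes passed the threshold, 41 were higher and 18 lower at an unadjusted p below 0.05, and Cd8a turned to 0.61. Deviations of same-numbered mice from their group means correlated at -0.11, -0.24 and -0.38, and those of differently numbered mice between -0.32 and 0.50. With 3 mice a group, these values cannot decide whether the numbers pair mice. The block changed no other call.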
